A study of Drosophila melanogaster with 3 samples.

Results

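The genes described here are al, C15, Lim1, ap, dac, Dll, bab1, bab2, rn and ss, 10 of the 13945 protein-coding genes on the 6 chromosome arms, which pattern the distal leg and the antenna of Drosophila. They were taken by name from the Ensembl annotation, and the rule that assigns peaks to them uses no measured value. A gene's window was its annotated span plus 5 kb on either side, and every peak with its summit in that window was assigned to the gene. The peaks come from chromatin immunoprecipitation and sequencing (ChIP-seq) of whole embryos, collected at 8 to 24 hours according to the source label, from flies that carry B-H1 fused to enhanced green fluorescent protein (eGFP). The fusion was precipitated with an antibody against GFP after sonication, and 3 biological replicates form 1 group. There is no second genotype or stage to set them against, and the control experiment that the labels mention was not analysed here. What is measured is occupancy by a tagged transgenic protein in all tissues of the embryo together, so strong binding in a few cells and weak binding in many cannot be told apart.

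B-H1 and its neighbour B-H2 encode homeodomain transcription factors of the Bar class, which pattern the distal leg segments (tarsus) of the larval imaginal discs, and act in the eye, antenna and sensory organs. In the leg, Dll specifies distal fate, dac the intermediate leg, rn, bab1, bab2 and ap segments of the tarsus, and al, C15 and Lim1 the pretarsus at the tip. In the leg disc, Bar genes and the pretarsal genes repress one another, and Bar activity is needed for ap in the distal tarsus. These relations come from genetics of the larval disc, not from embryos.

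The deposited peak lists gave 9 sites at 5 of the 10 genes (Dll, dac, bab1, bab2 and Lim1), where 44.0% of all protein-coding genes had a site by the same rule. Of the 9, 1 site near the 3′ end of bab1 was found in 3 of 3 replicates; 20.7% of all protein-coding genes had such a site. No thresholded peak fell in the windows of al, C15, ap, rn or ss. Thresholded peaks are those the authors kept for a replicate; each has a global irreproducible discovery rate (IDR, the expected share of peaks that do not repeat) of at most 0.01, a −log10 of at least 2. The sequences of 4 of the sites are shown because they are the reproducible site, the promoter-proximal site of dac, and the sites at bab2 and Lim1 that hold a homeodomain motif. Each is 200 bp around the summit on the plus strand of dm6, read from Release 6 of the genome as given by RefSeq, at chr3L:1032624-1032823, chr2L:16486376-16486575, chr3L:1139470-1139669 and chrX:8774153-8774352 in the order of the lines. Capitals mark TAATTG, or CAATTA where it lies on the minus strand, and TAATTA, which reads the same on both strands.
bab1, intron of trio: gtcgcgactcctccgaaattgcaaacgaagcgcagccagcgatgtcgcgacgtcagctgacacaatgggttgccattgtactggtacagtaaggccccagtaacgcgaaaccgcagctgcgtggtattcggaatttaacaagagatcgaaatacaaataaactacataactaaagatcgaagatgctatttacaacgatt
dac, upstream: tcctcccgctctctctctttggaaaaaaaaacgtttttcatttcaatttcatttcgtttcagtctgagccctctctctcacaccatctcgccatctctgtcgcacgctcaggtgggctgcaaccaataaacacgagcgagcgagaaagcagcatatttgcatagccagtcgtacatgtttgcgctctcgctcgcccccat
bab2, past the 3′ end: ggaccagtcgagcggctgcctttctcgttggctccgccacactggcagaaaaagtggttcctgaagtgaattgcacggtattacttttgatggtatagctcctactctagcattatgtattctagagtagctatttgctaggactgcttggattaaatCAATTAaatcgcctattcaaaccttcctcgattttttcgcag
Lim1, intron: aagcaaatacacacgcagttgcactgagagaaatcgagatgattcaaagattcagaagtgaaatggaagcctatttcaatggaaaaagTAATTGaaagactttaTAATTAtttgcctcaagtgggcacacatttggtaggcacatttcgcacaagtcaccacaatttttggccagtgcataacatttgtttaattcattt

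The site in the Lim1 intron held 1 TAATTG and 1 TAATTA, the site past the 3′ end of bab2 held 1 TAATTG, and neither motif occurs in the 200 bp at the bab1 and dac sites. Over all thresholded summits in the gene windows, 0 of 1 in replicate 1, 2 of 8 (25.0%) in replicate 2 and 0 of 4 in replicate 3 had TAATTA or TAATTG within the 200 bp. Among all other thresholded summits the share was 35.8%, 29.7% and 33.4% in replicates 1, 2 and 3. Split by motif, TAATTA occurred at 20.1%, 15.4% and 18.0% of those other summits, and TAATTG at 20.8%, 17.4% and 19.4%. With so few summits no difference in motif share is read from these values. The median share of G or C was 44.0%, 47.2% and 39.2% in the gene windows, against 33.0%, 36.0% and 34.5% at the other summits. The value of replicate 1 in the gene windows is that of a single summit, and the part of base composition in the motif counts was not tested. Apart from the site at Dll, the 9 sites ranged from 36.0% G or C in the Lim1 intron to 65.5% at the Lim1 promoter.

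The thresholded lists held 1971, 3609 and 2199 peaks on the arms in replicates 1, 2 and 3, and the ranked lists, from which they were drawn, 101546, 97966 and 72939. Of these, 1, 8 and 4 thresholded and 367, 331 and 286 ranked peaks had a summit in the gene windows. Overlapping thresholded peaks merged to 4085 regions, of which 1375 held a peak of all 3 replicates. Peak signal is the authors' own value; its scale is not stated, so a peak is placed by the percentile of its signal within its own list, where 100 is the strongest. The number of reads behind the lists is unknown here, and no counting interval can be attached to a peak. The 3 sets of lists share 1 input file, so they are not fully independent.

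bab1 (FBgn0004870, 3L:1036369-1101089, minus strand) and bab2 (FBgn0025525, 3L:1140429-1177276, minus strand) lie head to tail and encode paired BTB-domain nuclear proteins that pattern the tarsus. The reproducible site, 3L:1032574-1032925, lay 3645 bp past the 3′ end of bab1 and 68365 bp from its transcription start site (TSS). It falls in an intron of the neighbouring gene trio, a guanine nucleotide exchange factor gene, 2151 bp into that gene. The nearest TSS of a protein-coding gene is that of CG9205, 1973 bp away, with the summit upstream of it. The site is therefore a bab1 site only by the 5 kb rule. Its signal was 65.0, 90.4 and 64.8 in replicates 1, 2 and 3, percentiles of 99.0, 98.8 and 98.5 of the ranked lists, a mean of 98.8 ± 0.3 (SD, n = 3). The −log10 IDR was 4.03, 3.74 and 3.69, and the summits of replicates 1 and 3 lay 18 and 52 bp from that of replicate 2. All 3 replicates placed it in the top of the ranked peaks, but near the middle of those that passed the threshold, at percentiles of 51.5, 69.2 and 52.6 of the thresholded lists.

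A second bab1 site, 3L:1086304-1086603, lay inside the gene, in an intron 14635 bp from the TSS. Replicate 2 gave it a signal of 82.6, a percentile of 98.6 and a −log10 IDR of 3.67, and it was thresholded there. Replicate 3 had a ranked peak with its summit at the same base, at a percentile of 90.4 and a −log10 IDR of 0.07, and replicate 1 had no ranked peak. So 1 of 3 replicates carried this site past the threshold.

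bab2 had 3 sites. The intronic one, 3L:1151765-1152263, 25361 bp from the TSS, straddled the threshold: its percentile was 97.6, 97.0 and 97.1 in replicates 1, 2 and 3 (mean 97.2 ± 0.3, SD, n = 3), with a −log10 IDR of 1.45, 1.96 and 2.05. Only replicate 3 listed it as thresholded, with 2 peaks there, at percentiles of 97.1 and 6.3, which count as 2 summits of that replicate. By its highest peak, the 3 replicates ranked the site within a point of each other. The site at the start of bab2, 3L:1177080-1177379, with its summit in the 5′ UTR 46 bp downstream of the TSS, was thresholded in replicate 2 alone, at a percentile of 97.6 and a −log10 IDR of 2.90. Replicate 1 ranked it at 65.7 and replicate 3 had no peak. The site 859 bp past the 3′ end, 3L:1139420-1139719, was thresholded in replicate 2 (98.1, −log10 IDR 2.21), ranked at 88.2 in replicate 1, and without a peak in replicate 3.

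**Figure D1:**
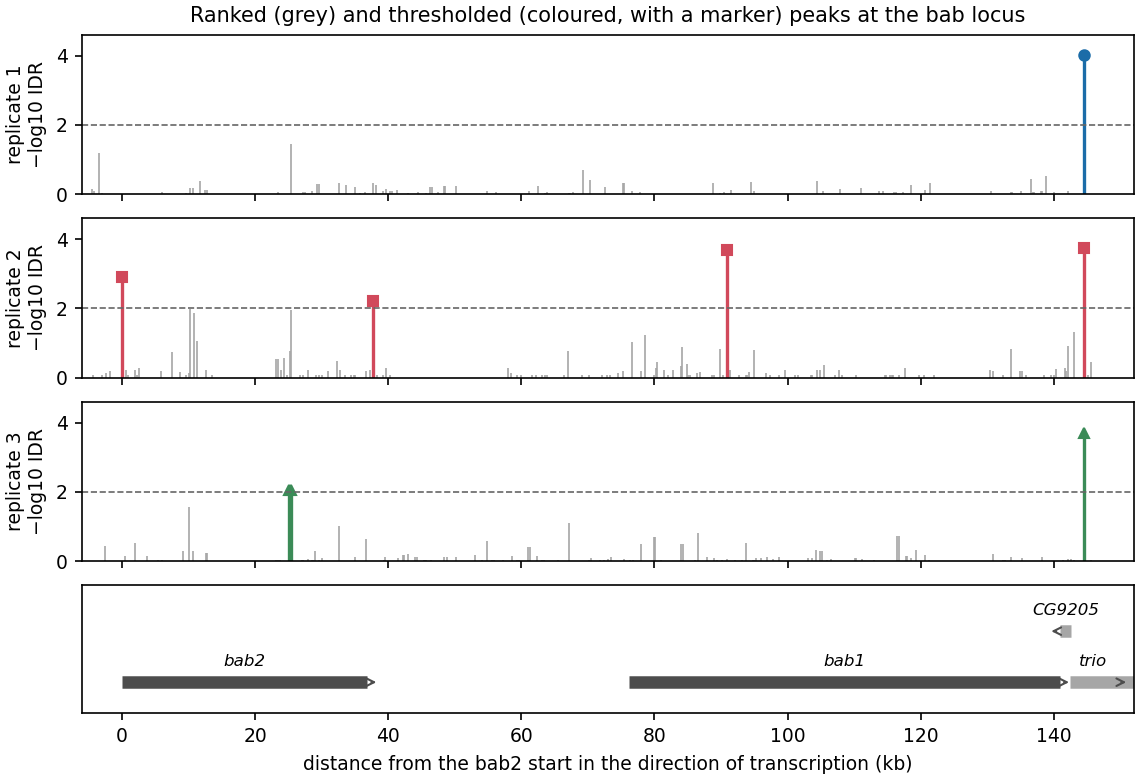
Ranked peaks along bab2 and bab1 in replicates 1, 2 and 3, plotted by distance from the bab2 start in kb (x axis) and −log10 global IDR (y axis), with thresholded peaks coloured and the dashed line at 2. The site in trio, beyond the bab1 3′ end, stands above the line in all 3 panels (4.03, 3.74 and 3.69), while the other coloured peaks appear in 1 panel each.

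Dll (FBgn0000157) encodes the homeodomain protein that specifies distal appendages, and a peak at its promoter had the highest signal of the 9 sites in replicate 2 and on the series' conservative list, though not in replicates 1 and 3, where the site in trio was higher. The summit lay 86 bp upstream of the TSS, in the region 2R:24814573-24814872. Signal was 29.3, 213 and 61.6 in replicates 1, 2 and 3, percentiles of 96.8, 99.8 and 98.4 of the ranked lists (mean 98.3 ± 1.5, SD, n = 3). The −log10 IDR was 5.0 in replicate 2, the highest value its list gives, and 3.84 in replicate 3, where the peak was thresholded, and 0.09 in replicate 1, where it was not. The summits of the 3 replicates lay within 50 bp of that of replicate 2. In replicate 1 another peak ranked higher in the window, at 97.5 with a −log10 IDR of 1.91. It lay in intergenic sequence past the 3′ end of Dll, 25617 bp from the Dll TSS. The nearest TSS of a protein-coding gene was that of CG3650, with the summit 8555 bp upstream of it.

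dac (FBgn0005677, 2L:16466512-16485998, minus strand) encodes a nuclear factor of the intermediate leg. Its 1 site, 2L:16486326-16486625, lay 478 bp upstream of the TSS. Replicate 2 had a signal of 79.0, a percentile of 98.5 and a −log10 IDR of 3.58. Replicate 3 had a peak with its summit 5 bp away, but at a percentile of 32.5 and a −log10 IDR of 0.03, and replicate 1 had none. The site passed the threshold in 1 replicate and ranked in the lower part of the list in another.

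Lim1 (FBgn0026411, X:8756539-8805804, minus strand) encodes a LIM-homeodomain factor of the pretarsus and antenna. The intronic site, X:8774103-8774402, 11100 bp from the nearest of its TSSs, had percentiles of 96.5, 98.3 and 96.2 in replicates 1, 2 and 3 (mean 97.0 ± 1.1, SD, n = 3) and a −log10 IDR of 0.13, 2.57 and 0.89. Replicate 2 alone passed the threshold, and replicates 1 and 3 had a ranked peak with its summit within 22 bp, at 96.5 and 96.2. The median highest percentile in the windows of protein-coding genes with a span of at least 10 kb was 97.5 and 96.5 in these replicates. The site 105 bp upstream of the TSS, X:8805759-8806058, just passed in replicate 2 (percentile 96.9, −log10 IDR 2.03), was at 65.2 in replicate 3 and had no peak in replicate 1.

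Replicate 2, which has the longest thresholded list, supplied 6 of the 7 sites that were thresholded in a single replicate. Near the threshold, the peaks just inside were the Lim1 promoter at 2.03 and the bab2 intron at 2.05. The peaks just outside were both in replicate 2 and in bab2, at 1.98 for a second intronic peak 10270 bp from the TSS and 1.96 for the intronic site above.

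**Figure D2:**
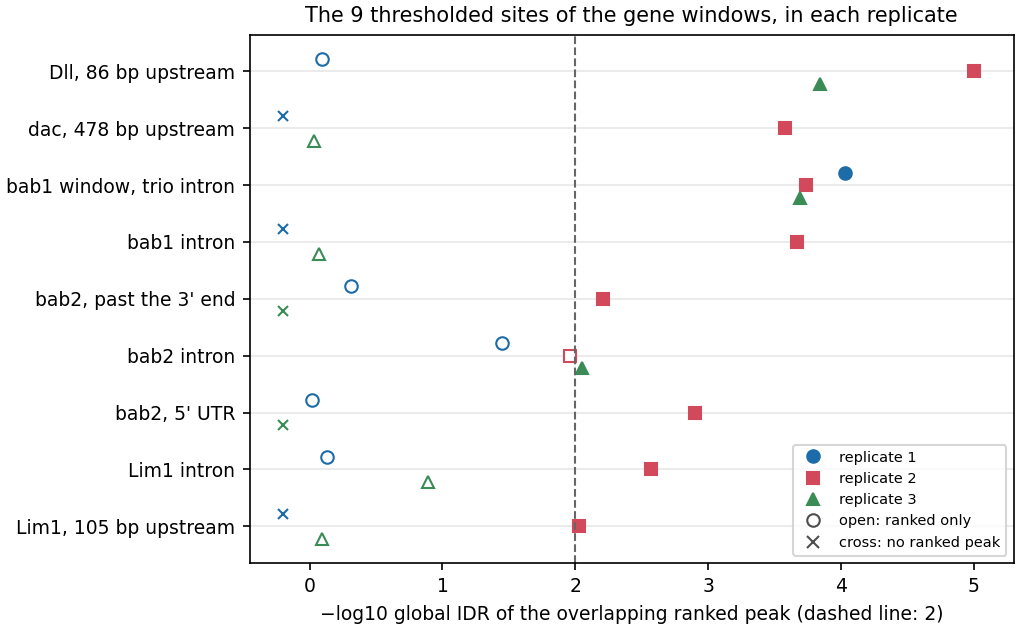
The −log10 global IDR (x axis) of the ranked peak that overlaps each of the 9 sites (rows), in replicates 1 (circle), 2 (square) and 3 (triangle); filled symbols were thresholded, open ones ranked only, and a cross marks no ranked peak. Only the site in trio has 3 filled symbols (4.03, 3.74 and 3.69), Dll has 2, and the bab2 intron lies at 1.45, 1.96 and 2.05 around the dashed line at 2.

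The authors' conservative list for the whole series, of 3078 peaks on the arms, held 4 peaks in the gene windows. They were the Dll promoter, the site in trio, the bab2 intron and the Lim1 intron, at percentiles of 81.5, 67.9, 35.2 and 35.0 of that list. These 4 sites were ranked at a percentile of 96.2 or more in each of the 3 replicates, and each of the other 5 lacked a ranked peak in at least 1 replicate.

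The remaining 5 genes had ranked peaks only. al (FBgn0000061), which encodes a homeodomain protein of the pretarsus, had its highest-ranked peak at 93.7, 84.4 and 89.8 in replicates 1, 2 and 3, and its highest −log10 IDR was 0.43, 0.67 and 0.46. C15 (FBgn0004863), a homeobox gene that acts with al, reached percentiles of 94.2, 90.5 and 90.4, with a −log10 IDR of at most 0.37, 0.45 and 0.52. ap (FBgn0267978), a LIM-homeodomain gene of the fourth tarsal segment, reached 84.7, 93.1 and 87.8, with 0.31, 1.12 and 0.17. All 3 genes stayed below the threshold of 2 in each replicate.

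rn (FBgn0267337), a zinc-finger gene of the tarsus, reached 96.0, 91.1 and 94.0, with a highest −log10 IDR of 0.79, 0.16 and 0.66. ss (FBgn0003513), which encodes a bHLH-PAS factor needed for antennal identity and the tarsus, reached 95.0, 84.4 and 87.7, with 0.46, 0.39 and 0.23. In each of these 5 genes, the highest-ranked peak had its summit at another position in each replicate. The same held at dac, which has a site. Replicate 1 at Dll, replicate 2 at bab2 and replicate 3 at Lim1 also had their highest-ranked peak at another site than the other replicates. Within 1 kb of a TSS of the gene, al reached 19.4, 62.7 and 71.0 in replicates 1, 2 and 3, rn 87.9 and 84.6 in replicates 1 and 3, and ss 88.4, 56.7 and 56.1. There ap reached 47.9 and 93.1, and C15 49.4 and 90.5, in replicates 1 and 2. In the replicates not given, rn, ap and C15 had no ranked peak that close.

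Averaged over replicates, the highest ranked percentile put bab1 (98.8 ± 0.3), Dll (98.6 ± 1.1), bab2 (97.6 ± 0.5), Lim1 (97.1 ± 1.1) and dac (95.7 ± 3.5) above rn (93.7 ± 2.5), C15 (91.7 ± 2.2), al (89.3 ± 4.7), ss (89.1 ± 5.4) and ap (88.5 ± 4.2; SD, n = 3 each). Each pair of neighbours in this order differed by less than the larger of their SDs. bab1, the first, takes its value in each replicate from the site in trio, outside the gene. Inside the bab1 span the highest percentiles were 93.9, 98.6 and 95.1 in replicates 1, 2 and 3. The mean of dac joins peaks at different positions. They lay in its 3′ UTR in replicate 1 (96.8) and at the site upstream of its TSS in replicate 2 (98.5). In replicate 3 (91.7) the peak was nearest to the TSS of Nepl8. bab1 also has the longest window, 74.7 kb, and al, which is low, the shortest, 19.3 kb. C15, also low, has 22.8 kb. Dll (30.8 kb) and dac (29.5 kb), however, lie above rn (47.0 kb), ss (39.3 kb) and ap (31.3 kb), whose windows are longer. The part of window length in the order was not tested. The median over the 10 genes was 94.9 ± 1.8, against 94.7 ± 1.2 over all protein-coding genes with a ranked peak and 97.2 ± 0.6 over those with a span of at least 10 kb (SD, n = 3), a group to which all of the genes but al belong.

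**Figure D3:**
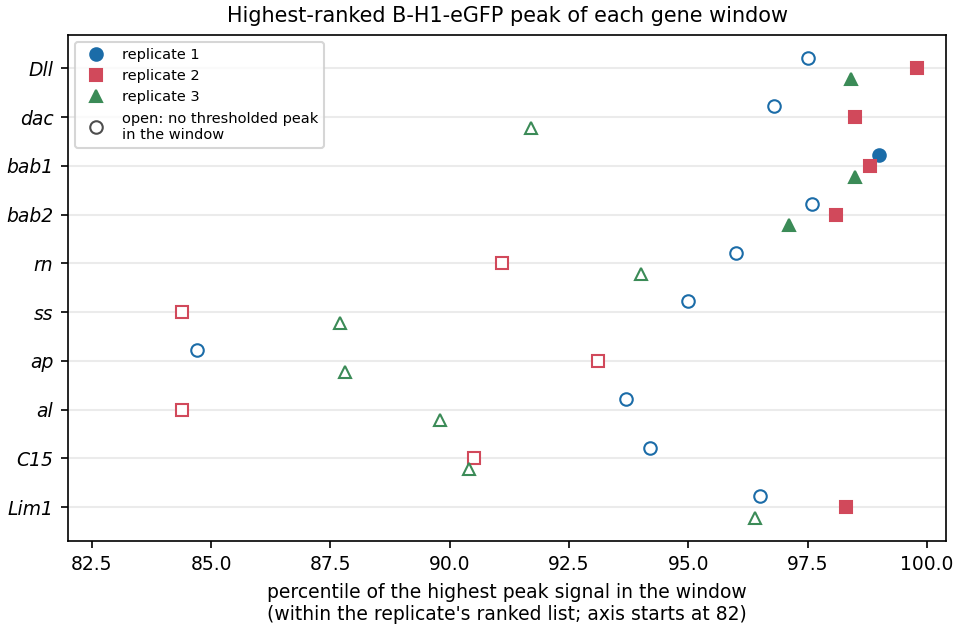
Percentile, within the replicate's ranked list, of the strongest peak in each gene window (x axis, starting at 82) for the 10 genes (rows); filled symbols mark a gene with a thresholded peak in that replicate. bab1, whose strongest peak is the site in trio, is filled in all 3 replicates and lies between 98.5 and 99.0. By contrast, rn, ss, ap, al and C15 are open throughout and lie between 84.4 and 96.0.

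In counts of genes, 1 of the 10 had a region found in 3 of 3 replicates, against 20.7% of all protein-coding genes, and 1 of the 9 genes of at least 10 kb, against 32.5% of all such genes. With regions in at least 2 replicates it was 2 of 10, against 28.5%, and with the conservative list 4 of 10, against 35.5%. A thresholded peak lay in the windows of 1, 5 and 3 of the genes in replicates 1, 2 and 3, against 27.0%, 38.9% and 29.2% of all genes. In any replicate it was 5 of 10, against 44.0%, and 5 of 9 against 62.4% among genes of at least 10 kb. These shares lie on both sides of the background, and with 10 genes nothing is read from them about the genes as a group.

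Thresholded summits were sparser in the gene windows, which cover 400.9 kb, than in the rest of the 133.9 Mb of arms in each replicate. The density was 0.249, 2.00 and 0.998 summits per 100 kb in the gene windows in replicates 1, 2 and 3, against 1.48, 2.70 and 1.64 in the rest. The difference averaged −0.86 ± 0.32 summits per 100 kb (SD, n = 3; exact permutation of signs, two-sided, p = 0.25, the smallest that 3 pairs allow), so the design cannot reach a threshold of 0.05. The 1 reproducible region in the gene windows compares with 4.1 at the density of the rest. Both comparisons are per length of sequence and take no account of how many TSSs the windows hold. The part of TSS number in them was not tested. Within 1 kb of a TSS lay 0 of 1, 4 of 8 and 1 of 4 summits of the gene windows in replicates 1, 2 and 3, against 60.5%, 59.5% and 60.2% of the other summits. The 5 were those at Dll in both replicates, bab2, dac and Lim1.

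Ranked peaks, most of them below the threshold, numbered 41.5 to 122 per 100 kb of the gene windows, apart from 2 values. rn had 50, 3 and 43 ranked peaks in replicates 1, 2 and 3. In replicate 2 this is 6.38 per 100 kb, where the median of genes of at least 10 kb was 101 and 6.12% of them were as low. ap had 13, 33 and 2 ranked peaks; in replicate 3 this is also 6.38 per 100 kb, where the median was 57.6 and 2.48% of long genes were as low. Both low values are of 1 replicate, and other replicates of the same gene were 106 and 91.5 per 100 kb at rn and 41.5 and 105 at ap. The absence of a thresholded peak at rn in replicate 2 and at ap in replicate 3 thus comes with few ranked peaks, and the part of that in the result was not tested.

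**Figure D4:**
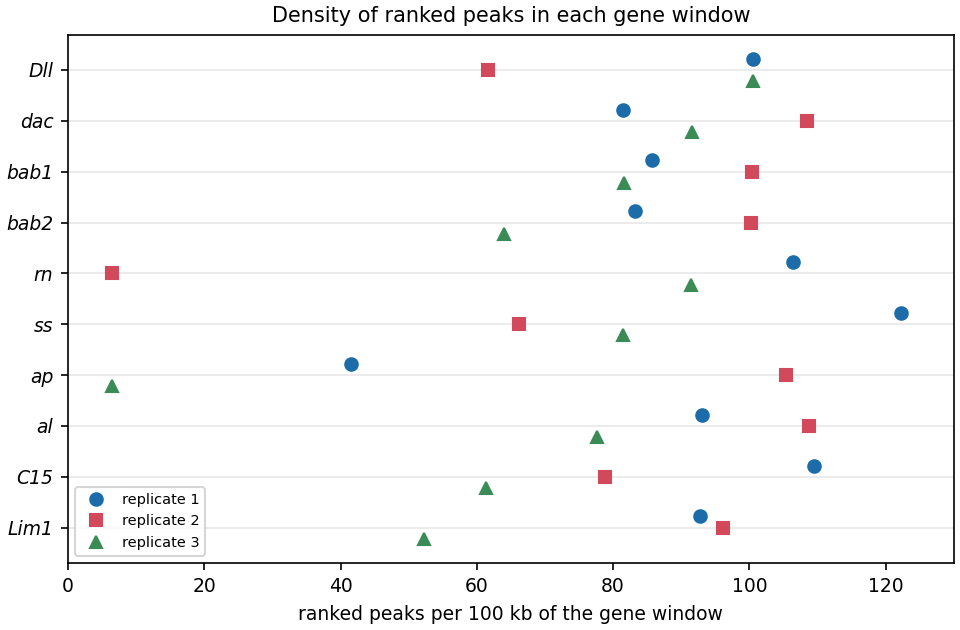
Ranked peaks per 100 kb of each gene window (x axis) for the 10 genes (rows) in replicates 1, 2 and 3. The points at 6.38 are rn in replicate 2 and ap in replicate 3, and the others lie between 41.5 and 122.

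Of 46 other genes of leg and antenna development found in the annotation, 10 (21.7%) had a region of all 3 replicates in the window, against 20.7% of all protein-coding genes, 15 regions in all. Antp (3 regions), which specifies leg over antenna, and hth (3), a proximal selector that partners with exd, had the most. Their windows, 113.0 kb at Antp and 142.0 kb at hth, are also the longest of the 46. bowl (2), N, Ssdp, bi, dpp, pros, sob and tup (1 each) followed. bowl and sob belong to the odd-skipped family of leg-joint genes, N is the Notch receptor of the joints, dpp a ligand of the dorsal leg and bi its dorsal target. Ssdp encodes a cofactor of Chi, the partner of LIM-homeodomain proteins such as Ap, and pros and tup encode homeodomain factors of the nervous system. The region nearest a start was at bowl, 212 bp from the TSS and at a mean percentile of 88.7 of the thresholded lists, and the regions of the other 9 genes lay 3460 bp (Antp) to 76904 bp (hth) from a TSS of the gene. Highest in signal among those were the regions at pros, at 85.0, and N, at 84.7, and lowest was 1 of the 3 at Antp, at 26.3. With the gene span only, 6 of the 10 genes kept a region. The regions at pros, sob, Ssdp and tup lay outside the span and count only by the 5 kb rule. B-H1 itself had 0, 1 and 1 thresholded peaks in replicates 1, 2 and 3, and B-H2 had 0 in each.

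The pattern of bab1, with 1, 2 and 1 thresholded summits in replicates 1, 2 and 3 and a 74.7 kb window, was most like that of sdk, Eip74EF, sfl, CG33158 and Gprk2, at distances of 0.040, 0.081, 0.214, 0.219 and 0.255. The distance is Euclidean over the 3 counts and the log2 of window length. Each has the same 3 counts and 1 reproducible region, so the order among them is one of length, with windows of 72.7, 70.7, 64.4, 87.0 and 62.6 kb.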

How the data were processed

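Per the file headers and labels, the deposited peak lists are on dm6, with 1 ranked and 1 thresholded list per replicate. Which aligner and peak caller were used is not stated in them. The signal of each peak (column 7) and the −log10 of the global IDR of ranked peaks are the authors' deposited values; signal served for ranks within a list only. The series' conservative list was used for comparison. In the series' 4 ranked lists, 32 columns with values per sample were not used, since no label ties them to a replicate. Genes came from Ensembl release 115, with 23584 TSSs, and peaks on 2L, 2R, 3L, 3R, 4 and X were kept. Replicate numbers are those of the labels, and all 3 form 1 group. In replicates 1, 2 and 3, 68, 112 and 64 ranked peaks pass the IDR without being in the thresholded list, 0 of them in the gene windows.

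Peaks that overlapped by at least 1 bp were merged, and a region with a peak of all 3 replicates was called reproducible; its summit was taken from the replicate whose thresholded list gave the peak the highest percentile of signal. Densities were compared by exact permutation of signs. Windows, regions and nearest-TSS steps were checked on simulated data. Named are the 10 genes, the gene with the TSS nearest to each thresholded summit, the genes of the second list with a reproducible region, and the 5 genes most like bab1. Genes further from the sites are named only where a value refers to them. In the second list, 46 of 47 symbols matched; Dl fits several genes and was left out. The members, lists and alternatives were chosen with earlier results of these data known. Alternatives were other windows, the nearest TSS, 2 of 3 replicates, the conservative list, a stricter and a looser IDR, other limits and windows for TSS and motif, and leaving out each replicate. Python 3.11.15, numpy 2.4.6, pandas 2.3.3 and matplotlib 3.10.9 were used.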

Additional observations from a re-analysis of the deposited data

How the results depend on the processing

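Of 68 alternatives, 42 were labelled as leaving the result the same and 26 as moving it. For counts, shares and percentiles, the label rests on a tolerance for the size of the change. For the density difference it rests on the sign alone, which 0 of its 8 alternatives reversed. The count of genes with a reproducible region (1) was 0 with the gene span only, with 1 kb around it and by nearest protein-coding TSS. It was 2 with 10 kb around the span, with at least 2 of 3 replicates and with a looser IDR of 0.05, which was chosen after seeing the data, and 4 with the conservative list. The count of regions (1) was 0, 0 and 0 under the first 3 of these, 3 with 10 kb, 2 with 2 of 3 replicates and with the looser IDR, and 4 with the conservative list. Leaving out 1 replicate gave 1 to 2 for both counts, with 2 without replicate 1, where the Dll promoter joins. With 10 kb, a second site in trio, 6589 bp past bab1, and a site 7553 bp from C15, 561 bp upstream of sp3, joined. Of the other leg and antenna genes (10), 6 were counted with the span only and with 1 kb, 5 by nearest TSS, and 16 with the conservative list. The mean share of summits near a TSS (25.0% ± 25.0) was 70.8% with a 2 kb limit and 12.5% without replicate 2. The mean share with a motif (8.3% ± 14.4) was 25.0% with 10 kb and with the conservative list, and 0.0% without replicate 2. Both mean shares weigh replicates 1, 2 and 3 equally, although they hold 1, 8 and 4 summits. Their ± therefore does not measure the spread between replicates alone. The median highest percentile (94.9) was 92.0 with the span only, 97.2 with 10 kb and 78.1 within 1 kb of the genes' own TSSs. The density difference (−0.86) stayed negative in all 8 alternatives, from −1.39 with the span only to −0.54 with 10 kb. The 10 genes, few sites and unknown depth limit every count.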
